A study of Drosophila melanogaster with 8 samples.

Results

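The steroid hormone ecdysone drives the moults and metamorphosis of insects. Its active form, 20-hydroxyecdysone, binds a heterodimer of the nuclear receptors EcR and Ultraspiracle (Usp), which switches on a first tier of early genes. The early-late genes follow, so that each hormone pulse is read as a timed sequence of transcription factors. In the larval eye disc this sequence accompanies the passage of the morphogenetic furrow and the differentiation of photoreceptors. The 10 genes described here are the receptor pair, EcR and usp, and 8 transcription factor genes of the cascade, Eip74EF, Eip75B, Eip78C, Hr3, Hr4, Hr39, ftz-f1 and Eip93F. They were chosen by name for their place in the pathway, with earlier results of these data known, from 15682 gene rows of which 9257 passed the filter on low counts. All 10 passed that filter. Of the 10, 8 encode nuclear receptors, and the remaining ones are Eip74EF, an ETS-domain factor, and Eip93F, a helix-turn-helix factor.

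Transcripts were compared between Ras/Src larval eye disc tumours of Drosophila melanogaster from larvae raised on medium with 0.15 M sucrose, the control diet (CD), and collected at day 8, and from larvae raised on 1.0 M sucrose, the high sucrose diet (HSD), and collected at day 14, with 4 libraries on each diet. In both groups, eyeless-driven FLP recombinase made GFP-labelled clones that expressed oncogenic ras1G12V from a UAS transgene and were homozygous mutant for csk (csk-/-), the kinase that restrains Src. The tissue was dissected and pooled without sorting, so a library also holds cells outside the clones. Age went wholly with diet, and their effects cannot be told apart. The study states that high sucrose delayed larval development, and describes larvae of both days as late third-instar unless otherwise noted. Stage was not tested here. The study describes its replicates as biologically independent samples, and the p-values measure the spread between them.

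Total counts lay between 11558860 and 19963565 per library. The second principal component, with 10.3% of the variance, set CD replicate 1 and HSD replicate 4 apart, and CD replicate 1 held salivary gland markers at a summed level of 4664 counts per 1000000 (CPM) against 47.6 to 408 in the other 7 libraries. Eye disc and retinal determination markers were present in every library, at 2554 to 2809 CPM in CD and 1548 to 1933 CPM in HSD, and 6 of 8 were called lower in HSD. Values below are CPM on TMM-scaled library sizes, a gene's share of the reads in a library after scaling. A gene is called when edgeR's quasi-likelihood test gave it an adjusted p under 0.05 (Benjamini-Hochberg over all 9257 genes).

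Every one of the 10 genes was called between diets, 8 lower and 2 higher in HSD. The background was high: 52.1% of all genes tested were called, 26.2% lower and 25.9% higher. The median log2 fold change of the 10 genes was -1.24, beside 0.00 over all genes tested. A fall of at least 2-fold was called for 5 of the 10, Eip75B, Eip78C, Hr3, Hr4 and Eip93F, and for 14.6% of all genes. For Hr3, Hr4 and Eip93F the fall was at least 16-fold, a size that 4.25% of all genes reached. The ranges of the diets did not overlap for any of the 10, and 50.5% of all genes had ranges that did not overlap, 25.6% lower and 24.9% higher in HSD. In bulk tissue, fewer cells of a type and less RNA per cell cannot be told apart.

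**Figure D1:**
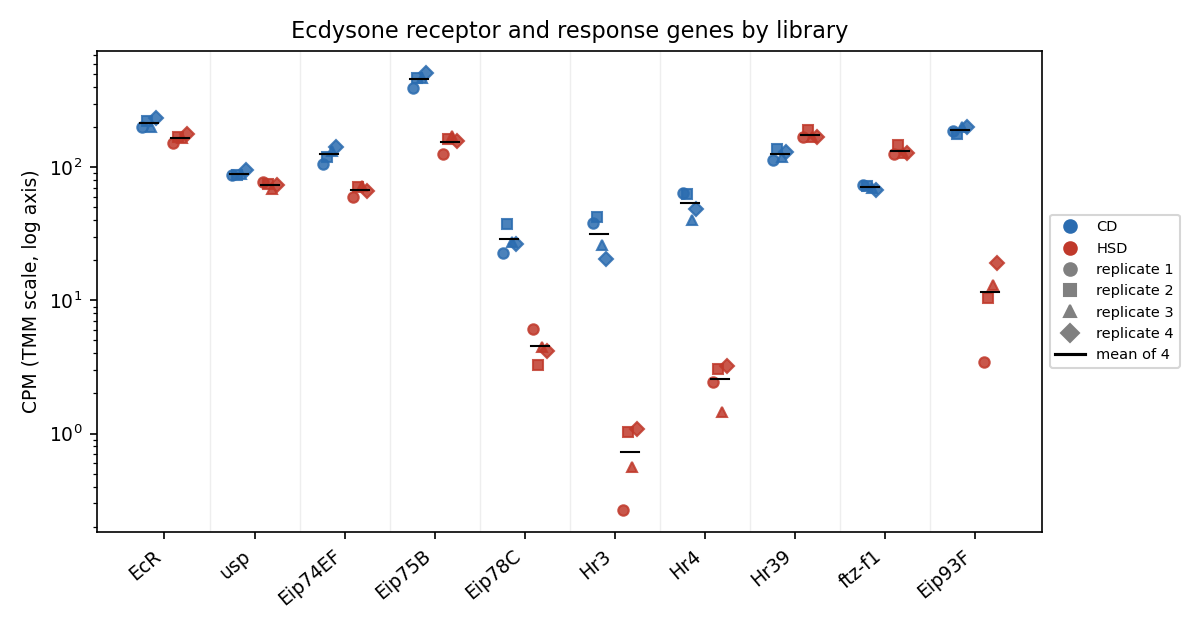
Level of each gene in each of the 8 libraries, as CPM on a log axis, with CD in blue and HSD in red, one marker shape per replicate number and a black line at the mean of 4 libraries. Hr3, Hr4 and Eip93F sit far apart between diets, EcR and usp are close, and Hr39 and ftz-f1 are the 2 genes whose HSD points lie above their CD points.

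The receptor genes were well expressed on both diets and showed small falls in HSD. EcR (FBgn0000546) encodes the hormone-binding partner. It stood at 201, 224, 200 and 234 CPM in CD replicates 1 to 4 and at 153, 170, 166 and 178 CPM in HSD. All 4 HSD libraries were below the lowest CD library, and the fall was 1.29-fold (log2 fold change -0.36, SE 0.08, adjusted p = 0.00224). usp (FBgn0003964) encodes the fly orthologue of the vertebrate retinoid X receptor and is the partner that EcR needs to bind DNA. Its CD values were 86.9, 87.3, 88.4 and 96.2 CPM and its HSD values 77.1, 75.0, 68.9 and 73.4 CPM. This was a fall of 1.22-fold (log2 fold change -0.29, SE 0.08, adjusted p = 0.00824). Of all genes tested, 29.3% fell by more than EcR and 32.9% by more than usp.

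Within a library the balance of the 2 receptor subunits differed little between diets. The log2 ratio of EcR to usp counts was 1.26 ± 0.08 (SD, n = 4) in CD and 1.18 ± 0.14 (SD, n = 4) in HSD. The ranges overlapped, and the difference of -0.08 did not pass the exact permutation test over 70 assignments of the libraries (p = 0.371, two-sided). A ratio within a library does not depend on how libraries are scaled to each other. Some reads assigned to usp are uncertain, since 8.72% of its exon bases lie in exons of Actn on the same strand, whose counts were 2030 to 3921 per library.

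The early genes Eip74EF and Eip75B are direct targets of the receptor, and both were lower in HSD. Eip74EF (FBgn0000567) is counted here over all its transcripts, which include the A and B forms that answer to different hormone levels. It stood at 106, 120, 133 and 142 CPM in CD and at 60.2, 71.6, 71.9 and 66.5 CPM in HSD, a fall of 1.85-fold (log2 fold change -0.89, SE 0.10, adjusted p = 4.06e-05). Eip75B (FBgn0000568) encodes a haem-binding nuclear receptor that can pair with Hr3 and block it. Its CD values were 395, 466, 470 and 514 CPM and its HSD values 125, 162, 171 and 157 CPM. The highest HSD library stayed far below the lowest CD library, and the fall was 3.0-fold (log2 fold change -1.58, SE 0.11, adjusted p = 1.02e-06).

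Eip75B fell by more than its early partner. The log2 ratio of Eip74EF to Eip75B was -1.88 ± 0.06 (SD, n = 4) in CD and -1.18 ± 0.09 (SD, n = 4) in HSD, with no overlap. The difference of 0.70, or 1.63-fold, had an exact permutation p of 0.0286, the smallest this design can give, and an adjusted p of 0.04 over the 7 ratios tested. Leaving out any 1 library gave 0.66 to 0.73, each time at the smallest p that 3 against 4 libraries allow (exact permutation p = 0.0286). The adjusted p of 0.04 to 0.0667 then moved only with how many of the other ratios reached that p. Both genes lie on chromosome arm 3L, Eip74EF at chr3L:17558672-17619325 and Eip75B at chr3L:17950953-18064696 on the minus strand (BDGP6 build). The annotation gives Eip75B 7 transcripts from 7 start sites and Eip74EF 5 transcripts from 3, and the counts sum them.

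The early-late nuclear receptors Eip78C, Hr3 and Hr4 had the steepest falls of the 8 nuclear receptors among the 10 genes. Eip78C (FBgn0004865), a relative of Eip75B, stood at 22.9, 37.6, 27.7 and 26.6 CPM in CD and at 6.13, 3.27, 4.50 and 4.18 CPM in HSD. It fell 6.34-fold (log2 fold change -2.66, SE 0.24, adjusted p = 5.86e-06). Hr4 (FBgn0264562) represses early genes and, in the prothoracic gland, holds back ecdysone synthesis. Its CD values were 64.6, 62.9, 40.4 and 48.7 CPM and its HSD values 2.45, 3.06, 1.44 and 3.24 CPM, a fall of 21.3-fold (log2 fold change -4.41, SE 0.26, adjusted p = 4.59e-07). Of all genes tested, 3.2% fell by more than Hr4.

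Hr3 (FBgn0000448), which represses early genes and is needed for ftz-f1 to be switched on in the prepupa, fell furthest of the 10. Its counts were 465, 748, 394 and 383 in CD and 5, 19, 10 and 15 in HSD. On the CPM scale these were 38.3, 42.2, 26.3 and 20.3 in CD and 0.267, 1.02, 0.556 and 1.08 in HSD. The fall was 43.8-fold (log2 fold change -5.45, SE 0.42, 95% interval -6.27 to -4.64, adjusted p = 1.87e-06), and 1.26% of all genes fell by more. The HSD level rests on few reads, and among genes expected at 5 to 20 counts in an HSD library, 15.3% to 29.8% had none. The counts are also uncertain because 61.8% of the Hr3 exon bases are shared with CG12912 and 58.0% with CG46321, both on the same strand. CG12912 itself had 0 to 12 counts per library, which does not show how reads in the shared exons were assigned.

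Among CD libraries, Hr3 and Hr4 were both higher in replicates 1 and 2 than in replicates 3 and 4. Eip74EF was lower in replicates 1 and 2 than in replicates 3 and 4. The photoreceptor markers had no common order among these libraries. Their sum, 2590, 2779, 3039 and 3066 CPM, was carried by pros at 1611, 1724, 1999 and 1934 CPM, while gl stood at 229, 196, 172 and 180 CPM. The part of tissue make-up in these differences was not tested.

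**Figure D2:**
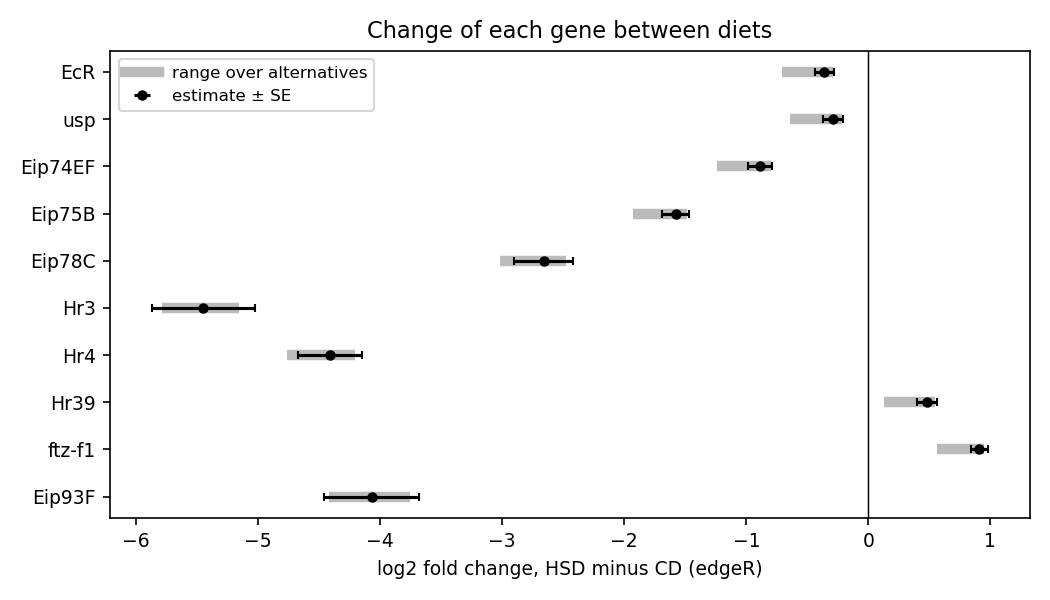
Log2 fold change of each gene, HSD minus CD, as a black point with its standard error from edgeR, and the range of the estimate over the alternative analyses as a grey bar. Hr3 at -5.45 and ftz-f1 at 0.91 mark the ends, and no grey bar reaches 0.

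Hr39 and ftz-f1 went the other way. The proteins recognise the same DNA element, and in flies ftz-f1 acts as the competence factor that prepares prepupal tissue for the next hormone pulse. Hr39 (FBgn0261239) stood at 113, 138, 119 and 131 CPM in CD and at 168, 192, 169 and 168 CPM in HSD. It rose 1.39-fold (log2 fold change 0.48, SE 0.08, adjusted p = 0.000604). Scaling the libraries to ribosomal protein genes gave 0.13 with an adjusted p of 0.348 and moved the median of all genes to -0.35, a median that Hr39 still lay above. ftz-f1 (FBgn0001078) had the tightest CD values of the 10, at 73.0, 71.9, 69.4 and 68.0 CPM, and stood at 125, 146, 129 and 128 CPM in HSD. Its rise of 1.87-fold (log2 fold change 0.91, SE 0.07, adjusted p = 3.05e-06) was exceeded by 10.3% of all genes, and that of Hr39 by 22.4%. Some reads assigned to ftz-f1 are uncertain, since 29.4% of its exon bases lie in exons of lncRNA:CR45939 on the same strand.

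ftz-f1 rose by more than Hr39. The log2 ratio of the pair within a library was -0.82 ± 0.15 (SD, n = 4) in CD and -0.40 ± 0.02 (SD, n = 4) in HSD. The difference of 0.43 had an exact permutation p of 0.0286 (adjusted p = 0.04). Leaving out any 1 HSD library gave 0.42 to 0.43 with ranges that stayed separate (exact permutation p = 0.0571, adjusted p = 0.0667 to 0.08). Blimp-1, a repressor that delays ftz-f1 in the fly prepupa, stood at 28.2, 23.5, 17.7 and 19.1 CPM in CD and at 2.19, 2.58, 0.667 and 0.0721 CPM in HSD (log2 fold change -3.97, SE 0.63, adjusted p = 0.000339). Thus Hr3 and Blimp-1, the activator and the repressor of ftz-f1 known from prepupae, were both lower in the diet where ftz-f1 was higher.

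The ratios set the early-late genes against each other and against Eip75B. The log2 ratio of Eip75B to Hr3 was 3.36, 3.47, 4.16 and 4.66 in CD and 8.73, 7.28, 8.20 and 7.14 in HSD. That is a gain of 3.92, or 15.2-fold (exact permutation p = 0.0286, adjusted p = 0.04). Eip75B was lower in HSD by itself, yet stood further above the transcript of the receptor that its product blocks. Leaving out any 1 library gave a gain of 3.63 to 4.17, again at the smallest p each time. Hr3 also fell by more than Hr4, with a log2 ratio of Hr4 to Hr3 of 0.80 ± 0.31 (SD, n = 4) in CD and 1.88 ± 0.81 (SD, n = 4) in HSD. This difference of 1.08 passed in the full set (exact permutation p = 0.0286, adjusted p = 0.04). It missed the threshold without HSD replicate 1 (0.68, exact permutation p = 0.0571, adjusted p = 0.08), without any 1 CD library (1.01 to 1.23, adjusted p = 0.0667) and with 5 counts added in place of 0.5 (0.73, adjusted p = 0.0667). Without HSD replicate 2, 3 or 4 it was 1.19 to 1.26 (exact permutation p = 0.0286), with an adjusted p of 0.05, which is not under 0.05.

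**Figure D3:**
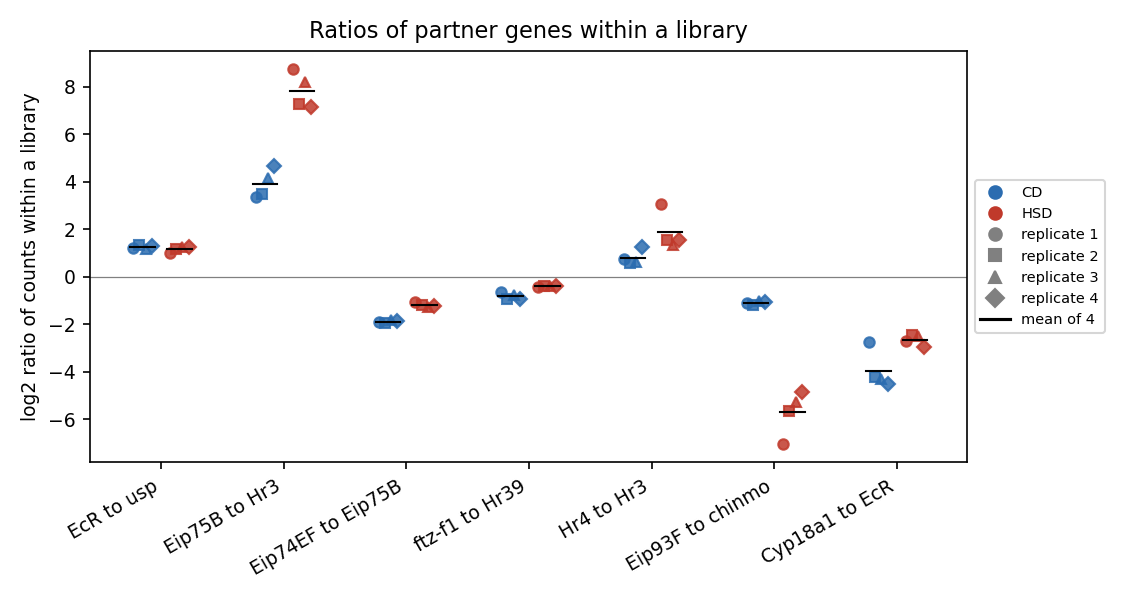
Log2 ratio of the counts of 2 genes within a library for 7 pairs, with CD in blue, HSD in red, one marker shape per replicate number and a black line at the mean of 4 libraries. The ranges of the diets overlap for EcR to usp and for Cyp18a1 to EcR and are separate for the other 5 pairs, most widely for Eip75B to Hr3 and Eip93F to chinmo. The share of other gene pairs with separate ranges was not computed. Of single genes, 50.5% had separate ranges.

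Eip93F (FBgn0264490) stands late in the sequence. In flies it directs the stage-specific responses of metamorphosis, among them larval tissue death and the adult programme. It stood at 187, 178, 199 and 201 CPM in CD, and no CD library held more than 1.13 times another. In HSD it stood at 3.47, 10.4, 13.0 and 19.0 CPM, from 65, 193, 234 and 264 counts, with the highest 5.49 times the lowest. The fall was 16.8-fold (log2 fold change -4.07, SE 0.39, 95% interval -4.83 to -3.32, adjusted p = 8.12e-06), and 4.07% of all genes fell by more. Its locus is chr3R:21949114-22014539 on the plus strand (BDGP6), with 3 annotated transcripts.

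The Eip93F product and Chinmo act in opposite directions in fly development, with Chinmo keeping the larval or juvenile state. chinmo stood at 406 ± 5.40 CPM (SD, n = 4) in CD and 506 ± 39.4 CPM in HSD (log2 fold change 0.32, SE 0.06, adjusted p = 0.00172), a direction that turned to -0.03 under ribosomal protein scaling. The log2 ratio of Eip93F to chinmo does not depend on the scaling. It was -1.12, -1.18, -1.02 and -1.04 in CD and -7.02, -5.64, -5.27 and -4.85 in HSD. The difference of -4.61, or 24.4-fold, had an exact permutation p of 0.0286 (adjusted p = 0.04), and leaving out any 1 library gave -4.89 to -4.16, at the smallest p each time.

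Of the HSD libraries, replicate 1 had the lowest value of 7 of the 10 genes, EcR, Eip74EF, Eip75B, Hr3, Hr39, ftz-f1 and Eip93F. It was the highest for usp and Eip78C, and it was the lowest for 29.2% of all genes tested. HSD replicate 4 was the lowest for none of the 10 and for 36.1% of all genes, and it was the highest for EcR, Hr3, Hr4 and Eip93F. Marker lists differed in their low library. Summed neuron markers were 233, 324, 292 and 264 CPM in HSD replicates 1 to 4, and summed glial markers 548, 639, 524 and 522 CPM. Photoreceptor markers summed to 153, 259, 217 and 259 CPM, an order that pros set at 4.64, 88.9, 25.2 and 15.9 CPM, while sev was lowest in HSD replicate 2 and lz in HSD replicate 3. Leaving out HSD replicate 1 gave a log2 fold change of -3.76 for Eip93F and -5.16 for Hr3, and neither lost its call.

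Markers of photoreceptors, neurons, neuroblasts and glia were mostly called lower in HSD, beside 26.2% of all genes tested. Photoreceptor markers summed to 2590 to 3066 CPM in CD and 153 to 259 CPM in HSD, with 9 of 9 called lower. In CD most of the sum was pros, at 1817 ± 181 and 33.6 ± 37.8 CPM (SD, n = 4 each), and elav, at 552 ± 75.2 and 77.2 ± 10.9 CPM. elav is also in the neuron list. The log2 fold change was -5.75 for pros and -2.84 for elav, and -2.47 to -1.48 for the remaining photoreceptor markers. Neuron markers summed to 1927 to 2399 CPM in CD and 233 to 324 CPM in HSD, with 9 of 10 lower. Neuroblast markers summed to 1260 to 1610 and 741 to 880 CPM, with 5 of 6 lower and 1 higher. Most of that sum was brat, at 1252 ± 164 and 696 ± 59.7 CPM. ase, mira and wor had log2 fold changes of -2.79, -3.40 and -3.89, dpn of -1.22 and insc of 1.32. Glial markers summed to 623 to 691 and 522 to 639 CPM, ranges that overlapped, with 6 of 8 lower and 2 higher. The 2 higher, Gli at 258 and 341 CPM and moody at 64.3 and 167 CPM, made up most of the HSD sum. The 6 lower had log2 fold changes of -4.20 to -1.44. Within these lists no tested marker was at 0 throughout a diet. The part of these cells in the fall of Hr3, Hr4, Eip78C and Eip93F was not tested.

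Tissues outside the nervous system that can adhere to a dissected disc were also read. Fat body markers summed to 1652 to 2387 CPM in CD and 856 to 3427 CPM in HSD with 1 of 7 lower, and haemocyte markers to 207 to 243 and 142 to 260 CPM with 2 of 7 lower. Muscle markers summed to 193 to 269 and 119 to 182 CPM, with 5 of 7 lower and 1 higher. Tracheal markers summed to 1412 to 1565 and 1691 to 2383 CPM, with 3 of 4 higher. Midgut markers were at 5.79 to 497 and 0.00 to 415 CPM with none of 3 called, and 1 of 8 salivary gland markers was higher. Leaving out both CD replicate 1 and HSD replicate 4 changed the call of none of the 10 genes. That check cannot address tissue that differed between diets across the libraries, such as muscle.

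Levels of different genes were compared per kilobase of exon (BDGP6 exon union), as CPM per kb. In CD, Eip75B led at 34.3 ± 3.65 (SD, n = 4), followed by usp at 29.5 ± 1.45, Hr39 at 25.1 ± 2.22 and EcR at 21.6 ± 1.74. Eip93F at 15.1 ± 0.854 and Eip74EF at 13.4 ± 1.71 came next, then ftz-f1 at 8.22 ± 0.263. Eip78C at 4.88 ± 1.07, Hr4 at 3.89 ± 0.835 and Hr3 at 3.04 ± 0.976 were lowest. Neighbours whose CD ranges overlapped were Eip75B and usp, Hr39 and EcR, Eip93F and Eip74EF, Eip78C and Hr4, and Hr4 and Hr3.

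The order in HSD was different. Hr39 led at 34.9 ± 2.39 CPM per kb (SD, n = 4), ahead of usp at 24.2 ± 1.15, EcR at 16.8 ± 1.05 and ftz-f1 at 15.4 ± 1.08. Eip75B, first in CD, came after these at 11.4 ± 1.50, and Eip74EF stood at 7.24 ± 0.588. The last 4 places went to Eip93F at 0.904 ± 0.508, Eip78C at 0.769 ± 0.203, Hr4 at 0.183 ± 0.0583 and Hr3 at 0.0698 ± 0.0371. In HSD the ranges of EcR and ftz-f1 overlapped, as did those of Eip93F and Eip78C, and no other neighbours did. Among all genes tested, 48.1% lay below Eip93F in CD and 13.1% in HSD. For ftz-f1 the shares were 30.3% and 49.1%.

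**Figure D4:**
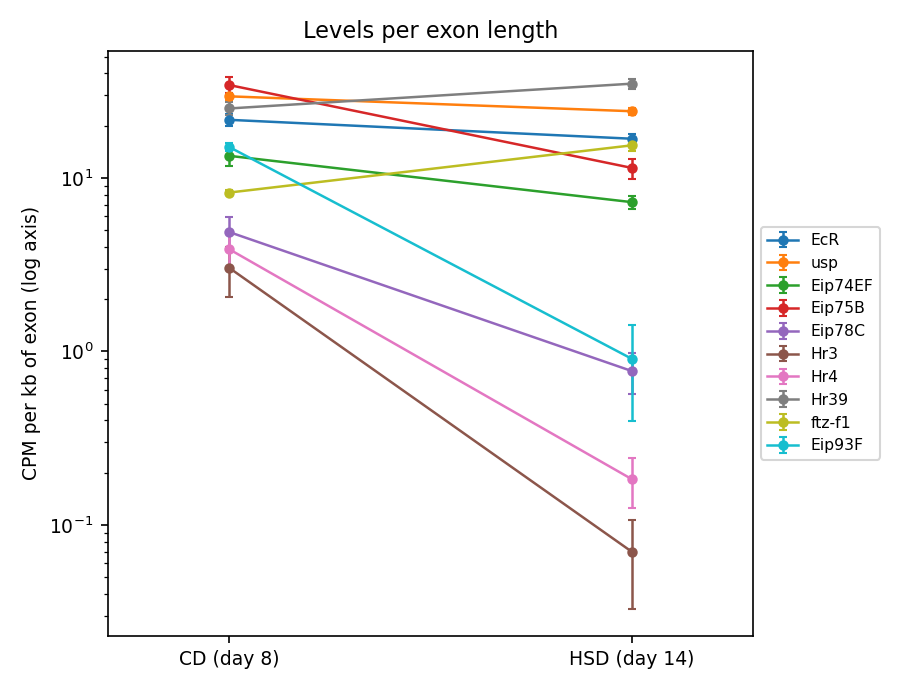
Mean CPM per kilobase of exon of each gene in CD (day 8) and HSD (day 14) on a log axis, with bars of 1 SD over 4 libraries. Lines for Hr39 and ftz-f1 slope up, and Eip93F drops from 15.1 to 0.904, crossing Eip74EF and ftz-f1.

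Genes for the supply of hormone to the cell and for cofactors of the receptor were mostly not called, and both the importer and a membrane receptor fell. Of 12 such genes, 3 were called lower, 1 higher and 8 were not called, with a median log2 fold change of -0.08. Over all genes tested, 26.2% were called lower and 25.9% higher. Oatp74D, the importer that ecdysone needs to enter cells, stood at 221, 224, 167 and 194 CPM in CD and at 124, 115, 116 and 124 CPM in HSD, and fell 0.75 on the log2 scale (log2 fold change -0.75, SE 0.10, adjusted p = 6.99e-05). The receptor coactivator gene tai stood at 163 ± 13.4 and 185 ± 15.7 CPM (SD, n = 4 each) and was not called (log2 fold change 0.18, adjusted p = 0.107, and -0.17 under ribosomal protein scaling). DopEcR, a membrane receptor for dopamine and ecdysone, fell from 27.1 ± 2.91 to 0.625 ± 0.488 CPM (log2 fold change -5.39, adjusted p = 3.92e-06). E(bx), the largest subunit of a chromatin remodeller that binds EcR, was called lower (log2 fold change -0.29, adjusted p = 0.0361), but lost the call without CD replicate 2, 3 or 4 or HSD replicate 1 or 2 (-0.27 to -0.21, adjusted p up to 0.15). Hsp83, a chaperone of the receptor, was called higher at 0.22 (adjusted p = 0.00871) and stood at -0.13 under ribosomal protein scaling.

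Cyp18a1 encodes the enzyme that inactivates ecdysone and is itself induced by the hormone. It stood at 29.8, 12.0, 9.94 and 10.1 CPM in CD and at 23.6, 31.6, 29.3 and 23.1 CPM in HSD, and was not called (log2 fold change 0.81, SE 0.34, adjusted p = 0.0658). CD replicate 1 lay within the HSD range. Without that library the log2 fold change was 1.35 (adjusted p = 0.000104). The log2 ratio of Cyp18a1 to EcR gained 1.32 in HSD with an exact permutation p of 0.0571 (adjusted p = 0.0667), and 1.72 without CD replicate 1 (adjusted p = 0.04). shd, whose product makes the active hormone in target tissues, was near 1 to 3 CPM in all libraries and was not called (log2 fold change -1.09, adjusted p = 0.133).

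Nuclear receptors outside the cascade mostly did not pass the test. Of 13 with a row, 9 were tested, 2 were lower, 1 was higher and 6 were not called, with a median of -0.13. Over all genes the shares were 26.2% lower and 25.9% higher. svp, a COUP-TF receptor that can pair with Usp, fell from 64.7 ± 6.26 to 18.3 ± 3.83 CPM (log2 fold change -1.83, adjusted p = 3.5e-06). tll, which maintains neural stem cells, fell from 18.6 ± 3.23 to 0.821 ± 0.687 CPM (log2 fold change -4.53, adjusted p = 7.32e-05). Hr78, which can bind ecdysone response elements, stood at 101 ± 9.34 and 102 ± 3.37 CPM, with a log2 difference of 0.00 and an SE of 0.08. The one rise was that of knrl (log2 fold change 0.46, adjusted p = 0.00949), which was 0.11 under ribosomal protein scaling.

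Other factors of the ecdysone and juvenile hormone cascades moved in both directions. Of 9 tested, 5 were lower, 3 higher and 1 was not called, with a median of -0.34. Over all genes the shares were 26.2% lower and 25.9% higher. The lower genes were Blimp-1, crol, Syp and the paired juvenile hormone receptor genes. Met, the first of that pair, stood at 37.8 ± 3.86 and 23.4 ± 3.23 CPM (log2 fold change -0.69, adjusted p = 0.00127). gce, the second, stood at 22.7 ± 2.92 and 2.83 ± 1.70 CPM (log2 fold change -3.02, adjusted p = 4.37e-05). Syp, an RNA-binding protein of late neuroblasts, stood at 565 ± 96.9 and 245 ± 47.0 CPM (log2 fold change -1.20, adjusted p = 7.36e-05). Among the higher genes were ken at 0.75 (adjusted p = 0.000299) and mld, a zinc finger factor needed for ecdysone synthesis in flies, at 0.55 (adjusted p = 0.00451). The ecdysone early gene br was not analysed here, nor was Kr-h1.

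**Figure D5:**
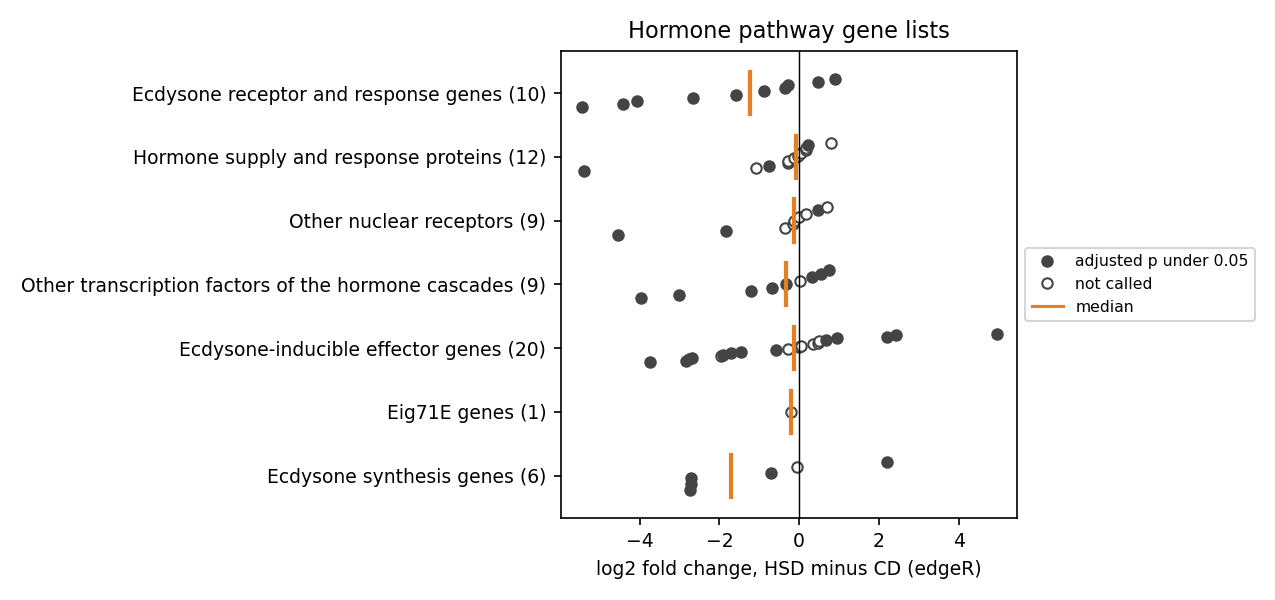
Log2 fold change, HSD minus CD, of every tested gene in 7 lists of hormone pathway genes, with the number tested after each name, filled points for an adjusted p under 0.05 and an orange line at the median. The 10 receptor and response genes have a median of -1.24 and the 6 synthesis genes -1.70, while the medians of the other lists lie between -0.34 and -0.08.

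Known ecdysone-inducible effector genes moved in both directions, as did all genes tested. Of 20 tested, 8 were lower, 5 higher and 7 not called, with a median of -0.14. Over all genes the shares were 26.2% lower and 25.9% higher. The ImpE genes, isolated as transcripts that ecdysone induces early in imaginal discs, all fell. ImpE2 stood at 1181, 1232, 877 and 908 CPM in CD and at 76.8, 75.0, 54.3 and 106 CPM in HSD (log2 fold change -3.75, SE 0.20, adjusted p = 2.68e-07). ImpE1 fell from 190 ± 27.6 to 69.1 ± 7.72 CPM (log2 fold change -1.46, adjusted p = 2.4e-06), and ImpE3 from 79.0 ± 9.21 to 11.7 ± 3.38 CPM (log2 fold change -2.76, adjusted p = 8.71e-07). As with Hr3 and Hr4, ImpE2 was higher in CD replicates 1 and 2 than in CD replicates 3 and 4.

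The late disc transcripts of the same series went up or were scarce. ImpL2, a secreted antagonist of insulin signalling, rose from 328 ± 43.7 to 1771 ± 644 CPM (log2 fold change 2.43, adjusted p = 1.79e-05). Ldh, once named ImpL3 and encoding lactate dehydrogenase, stood at 31.4 ± 16.4 CPM (SD, n = 4) in CD and at 1304, 1128, 1144 and 289 CPM in HSD (log2 fold change 4.95, adjusted p = 1.37e-05). ImpL1 was at 0 to 5.75 CPM in CD and 0 to 1.51 CPM in HSD and was not called. Among the small heat shock genes that ecdysone induces, Hsp23 was called lower at -1.91 (adjusted p = 6.83e-06) and Hsp27 at -1.72 (adjusted p = 1.53e-07). Hsp26 was not called, at 0.35 (SE 0.36, adjusted p = 0.443), and its ranges overlapped.

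The death genes that ecdysone induces in doomed larval tissues were higher in HSD. rpr stood at 16.7, 16.7, 15.6 and 20.5 CPM in CD and at 84.3, 69.5, 91.3 and 74.2 CPM in HSD (log2 fold change 2.20, SE 0.13, adjusted p = 3.82e-07). hid rose from 103 ± 11.3 to 197 ± 24.6 CPM (log2 fold change 0.94, adjusted p = 3.42e-05), and the initiator caspase gene Dronc from 81.2 ± 4.36 to 130 ± 19.4 CPM (log2 fold change 0.68, adjusted p = 0.000381). In salivary glands of flies, Eip93F is required for this induction, and here Eip93F was lower where rpr and hid were higher. Of 11 Eig71E genes, late targets in the salivary gland, 1 could be tested and 5 were listed at 0 in every library. Eig71Ee was at 110 CPM in CD replicate 1 and at 0 to 3.33 CPM in the other CD libraries, and at 9.65 to 48.8 CPM in HSD. Its log2 fold change was -0.20 (adjusted p = 0.917), and 4.19 without CD replicate 1 (adjusted p = 0.00441).

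Genes of ecdysone synthesis, a function of the prothoracic gland, were read for tissue carried along with the disc. Of 6 tested, 4 were lower, 1 was higher and 1 was not called, with a median of -1.70. Over all genes the shares were 26.2% lower and 25.9% higher. sad, which encodes a late hydroxylase of the pathway, stood at 125, 170, 158 and 146 CPM in CD and at 21.1, 7.78, 13.2 and 50.3 CPM in HSD (log2 fold change -2.71, SE 0.46, adjusted p = 0.000557). sro and dib, which encode earlier steps, fell by 2.70 and by 2.73 on the log2 scale (adjusted p = 0.000104 and 0.000196). spok, a marker specific to the gland, was listed at 0 in all 8 libraries. nvd and phm, also on the list of gland markers, were not analysed here. tor, the receptor gene for the hormone that stimulates the gland, was higher at 3.62 ± 2.64 and 16.8 ± 4.65 CPM (log2 fold change 2.20, adjusted p = 0.00226).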

How the data were processed

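Messenger RNA of 8 pooled tissue samples was sequenced with a stranded TruSeq kit. Per the labels and the submitters' processing notes, the authors used CASAVA 1.8.4, trimmed reads with Trim Galore 0.4.4, aligned them to dm3 with TopHat2 2.0.11 and obtained gene counts with featureCounts. The deposited table held these raw counts without normalisation. The strand setting and the treatment of reads with several alignments are not given in the sources used here, so counts of overlapping genes are uncertain.

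Symbols came from a table of gene names, which matched 15002 (95.7%) of the gene identifiers. Exon lengths and positions came from the BDGP6 annotation, a later build than the alignment, and no coordinate was converted. Counts were tested with edgeR 4.0.16 in R 4.3.3 (filterByExpr, TMM, quasi-likelihood test on diet, two-sided, Benjamini-Hochberg over 9257 genes). Standard errors were log2 fold changes, without sign, over the square root of F. Ratios within a library used log2 of counts plus 0.5 and an exact permutation test. The fit was tested on simulated data. The chi-square per degree of freedom between libraries of a diet was at least 11.5, so none was counted as a duplicate.

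The named genes were the 10 transcription factor genes, all reported with their values in every library, and genes of companion lists. The members and lists were chosen with earlier results of these data known. Genes named beyond the fixed names were chosen after their values were seen. Alternatives were DESeq2 1.42.0, limma 3.58.1 (voom), other scalings (DESeq2 size factors, upper quartile, total counts, 80 ribosomal protein genes), other filters, replicate number as a block, and libraries left out.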

Additional observations from a re-analysis of the deposited data

Results flagged for a closer look

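In 10 of 148 groups of 4 libraries, 1 library stood apart from the other 3 by Dixon's ratio of its gap to the group's range, read on log2 CPM or on a log2 ratio. The 95% critical value for 4 libraries was used, and chance gives about 1 in 20, or 7.4 groups. Of 20 groups of the receptor and response genes, Hr39 in HSD replicate 2 (192 CPM, ratio 0.942) and usp in CD replicate 4 (96.2 CPM, ratio 0.832) were the highest of their group. The Hr4 to Hr3 ratio was highest in HSD replicate 1 (log2 3.08, ratio 0.871). CD replicate 1 was the highest for Cyp18a1 (29.8 CPM, ratio 0.832) and Fbp1 (460 CPM, ratio 0.903) and the lowest for sev (ratio 0.888). DopEcR was highest in CD replicate 4 (31.4 CPM, ratio 0.918). Ldh was lowest in HSD replicate 4 (289 CPM, ratio 0.903), the retinal determination gene so was lowest in HSD replicate 2 (ratio 0.905), and wor was lowest in HSD replicate 1 (ratio 0.852).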

How the results depend on the processing

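Of the 10 genes, 9 kept their direction and call under each alternative run, 18 for each gene and 17 for Hr3, which could not be tested when at least 10 counts were required in every library. The exception was Hr39 under ribosomal protein scaling (0.13, adjusted p = 0.348), which left 1 gene called higher. The call nearest the threshold was that of usp (-0.22 without CD replicate 4, adjusted p = 0.0453). Ribosomal protein scaling moved the median of all genes to -0.35 and gave 3967 lower and 1052 higher calls (21.0% higher, beside 49.8%). Total counts alone gave a median of -0.13 with 38.1% of calls higher.

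Under ribosomal protein scaling Hsp83 (-0.13), Hr78 (-0.35), chinmo (-0.03), MsrA (-0.32) and tai (-0.17) changed sign. Lower calls were then 7 among hormone supply genes and 6 among nuclear receptors, and higher calls 0, 0 and 1 among hormone supply genes, nuclear receptors and other factors. Hormone supply genes had 5 lower calls with total counts alone, 0 higher calls with upper quartile or total counts, 2 with DESeq2 and with limma-voom, 2 without CD replicate 1 and HSD replicate 4 together, and 1 to 3 with single libraries left out. Nuclear receptors had 4 lower calls when every gene with a count was tested and 1 with at least 10 counts in every library. Eig71Ee was called higher without CD replicate 1 (4.19), and without that library and HSD replicate 4 (4.15; -0.78 to 4.19 over single libraries left out), so the Eig71E count was 0 to 1 with single libraries left out and 1 with both. The causes were not tested.

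With single libraries left out, the log2 ratio differences ranged from 3.63 to 4.17 for Eip75B to Hr3, 0.66 to 0.73 for Eip74EF to Eip75B, 0.39 to 0.49 for ftz-f1 to Hr39, 0.68 to 1.26 for Hr4 to Hr3, -4.89 to -4.16 for Eip93F to chinmo and 1.12 to 1.72 for Cyp18a1 to EcR. With 5 counts added they were 3.43, 0.70, 0.42, 0.73 and -4.56 for the first 5. Adjusted p reached 0.05 or more in most of these settings. Eip75B to Hr3, Eip74EF to Eip75B and Eip93F to chinmo stayed at the smallest possible p (0.0286) without any 1 library, so their adjusted p there shows only how many of the 7 ratios reached it. Cyp18a1 to EcR passed the threshold without CD replicate 1.

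Replicate numbers did not pair the libraries: deviations from the diet means correlated at -0.06, 0.00, 0.07 and -0.15 between libraries of the same number, and no CD library correlated best with its own number. With replicate number as a block, 2295 genes were lower and 2314 higher, all 10 genes kept their calls, and hormone supply genes had 2 higher calls. Depth limits Hr3 most, at 5 to 19 counts in HSD.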
